A study of Mus musculus with 6 samples.

Results

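Type I interferon-stimulated genes were followed in left ventricular myocardium of mice 9 days after transverse aortic constriction (TAC), a narrowing of the aorta that loads the left ventricle with pressure. The set was given as a list of 39 gene symbols. It leaves out the interferon-gamma GTPases of the GBP and IRG families and the MHC genes. The rule itself uses no measured value, but the list was chosen with earlier results of these data known. Counts and shares over the set are therefore description and not a test. All 39 symbols had a row among the 47729 genes of the deposited count table. Of these, 38 had enough counts to be tested and Oas1a did not. The 3 libraries labelled control and the 3 labelled Treg all came from TAC hearts. The Treg group received regulatory T cells induced in vitro under CD28 deprivation and given systemically, as the series title has it. The labels do not say what the control group received, nor the strain, sex or age of the mice. No unoperated hearts were analysed here. Whether the libraries are from separate animals is not stated either, so the p-values rest on library-to-library spread, which may be technical.

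Type I interferons are cytokines that signal through a receptor made of IFNAR1 and IFNAR2 and the kinases JAK1 and TYK2. The kinases phosphorylate STAT2, which acts in a complex with IRF9 that binds a DNA element that contains a repeated GAAA. The genes under this element encode sensors of foreign nucleic acid, antiviral effectors and regulators that feed back on the pathway. In the heart they are known from viral myocarditis and from the response of macrophages to DNA of dying cells.

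The DNA element can be seen in the promoters of the set. RefSeq promoter windows (GRCm38.p6, 250 bases before to 50 after the start site) were on hand for 29 of the 39 genes, as 35 windows. The pattern searched was GAAA, any 2 bases, GAAA, which reads TTTC, any 2 bases, TTTC when it lies on the other strand. Both strands were searched and overlapping matches were counted separately. It was present for 14 of the 29 genes, or 48.3%, against 3.99% of the 27025 genes with a window. By window, 42.9% of the set's windows held it, against 3.44% of all 32851. Below, the stretches upstream of the start site are shown for 8 of these genes with 20 bases on each side up to the start site, to let the arrangement of the repeats be compared. Capitals mark the matches. In Isg15 and Bst2 consecutive matches overlap in 1 unbroken run of repeats, in Ifit1 and Ifit3 they are separate and on the opposite strand, and in Stat2 and Rsad2 there is 1 match.
Isg15 (chr4:156200855-156200916, minus strand): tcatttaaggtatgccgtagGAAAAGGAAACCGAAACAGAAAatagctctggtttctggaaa
Bst2 (chr8:71537567-71537622, minus strand): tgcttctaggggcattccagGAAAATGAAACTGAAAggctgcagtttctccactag
Ifit1 (chr19:34640765-34640833, plus strand): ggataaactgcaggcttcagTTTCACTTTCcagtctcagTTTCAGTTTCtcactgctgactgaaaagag
Ifit3 (chr19:34583353-34583436, plus strand): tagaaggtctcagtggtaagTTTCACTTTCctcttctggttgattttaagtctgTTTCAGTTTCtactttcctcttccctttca
Ifit3b (chr19:34607749-34607832, plus strand): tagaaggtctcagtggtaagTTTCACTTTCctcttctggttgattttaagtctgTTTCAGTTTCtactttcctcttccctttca
Oas1a (chr5:120907526-120907565, minus strand): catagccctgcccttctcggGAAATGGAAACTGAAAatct
Rsad2 (chr12:26456543-26456592, minus strand): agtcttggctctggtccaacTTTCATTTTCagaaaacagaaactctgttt
Stat2 (chr10:128270256-128270305, plus strand): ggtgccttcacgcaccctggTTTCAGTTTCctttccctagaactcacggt

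The matches of Ifit3 and Ifit3b start 34 bases apart in each gene. The 250 bases upstream of these neighbouring genes aligned over 218 bases, of which 216 were identical. The RefSeq start sites sit at different points of this shared sequence, so that the matches begin at −156 and −122 in Ifit3 and at −188 and −154 in Ifit3b. The upstream windows are given because the pair also share transcript sequence, which bears on how their reads could be counted.
Ifit3 (chr19:34583279-34583528, plus strand): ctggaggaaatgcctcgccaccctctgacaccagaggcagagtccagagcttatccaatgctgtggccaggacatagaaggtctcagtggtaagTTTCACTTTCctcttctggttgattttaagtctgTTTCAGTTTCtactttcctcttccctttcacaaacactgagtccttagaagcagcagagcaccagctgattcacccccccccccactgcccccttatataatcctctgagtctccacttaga
Ifit3b (chr19:34607707-34607956, plus strand): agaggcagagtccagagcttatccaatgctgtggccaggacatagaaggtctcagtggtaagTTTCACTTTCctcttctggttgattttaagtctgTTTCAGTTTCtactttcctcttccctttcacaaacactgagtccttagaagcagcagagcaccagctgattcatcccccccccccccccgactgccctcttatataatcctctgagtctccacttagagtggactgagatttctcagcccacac
The element through which interferon gamma acts, searched as TTCNNNGAA, reads the same on both strands. It was in the windows of 6 of the 29 genes, or 20.7%, against 9.55% of all genes with a window, and 1 of them was Irf1, whose match begins at −90.
Irf1 (chr11:53769904-53769952, plus strand): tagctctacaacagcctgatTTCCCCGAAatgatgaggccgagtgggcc
A match describes letters in the window and not bound protein, and a window without these letters says nothing about the factor.

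**Figure D1:**
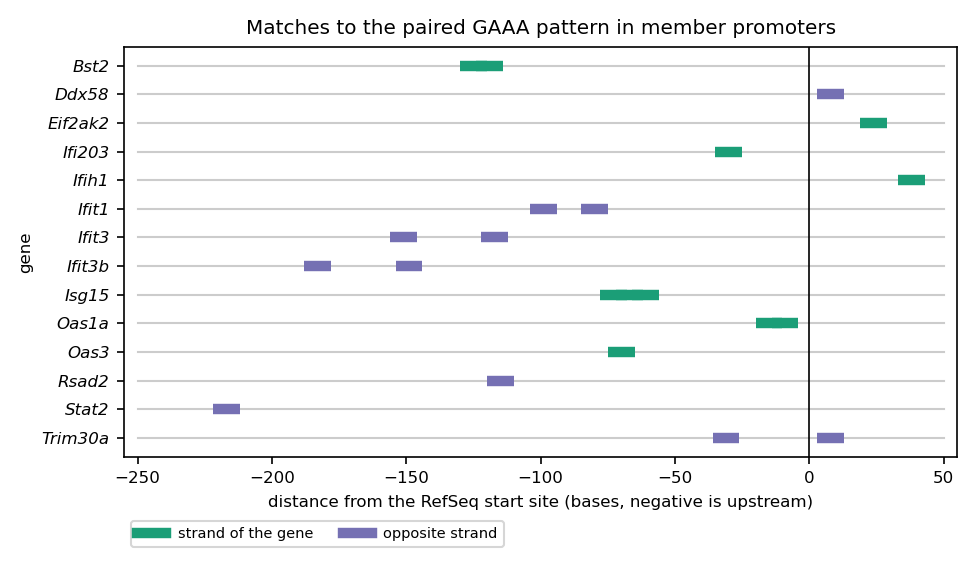
Position of each match to the double GAAA pattern (bars 10 bases long, green on the gene's strand and purple on the opposite strand) in the RefSeq promoter windows of the 14 genes that had a match; the x axis gives the distance from the start site in bases and the vertical line marks that site. Matches of Isg15, Bst2, Ifit1, Ifit3, Ifit3b and Rsad2 lie between −188 and −66, and those of Ddx58, Eif2ak2 and Ifih1 lie after the start site.

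Levels of the set were low to moderate in this tissue. CPM are counts scaled to library size with TMM factors, and RPKM are CPM per kilobase of annotated exon, used when genes are set against each other. By mean RPKM in the control group Ifi27, an interferon-induced mitochondrial protein, was at 9.56 ± 4.37 (SD, n = 3) and Bst2, tetherin, which holds budding virus at the cell surface, was at 6.83 ± 0.432. These 2 overlapped within their spread. The other end of the range was held by Mx1 at 0.226 ± 0.114 RPKM and Oas3 at 0.0711 ± 0.055 RPKM. In a bulk sample fewer cells of a type and less RNA per cell cannot be told apart.

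All 38 tested genes had a higher fitted level in the Treg group, and none passed the test for a difference between the groups. The log2 fold change (Treg against control) ran from 0.05 to 1.61 with a median of 0.72, where the median of all 17365 genes tested was −0.02 and 48% of them were above 0. By edgeR's quasi-likelihood test 0 of 38 had an adjusted p under 0.05, and the background over all genes was 0%. The adjusted p of the set ran from 0.117 to 0.916. At an unadjusted p under 0.05 there were 26 of the 38, all higher in Treg, against 8.23% of all genes. In 23 of the 38 every Treg library lay above every control, against 13.7% of all genes, and in 0 every Treg library lay below, against 11.7%. DESeq2, fitted to the same counts, called 6 of the 38 at an adjusted p under 0.05, all higher, against 1.85% of all genes. These were Oas2, Ifit3, Ifit3b, Parp14, Dtx3l and Cmpk2.

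**Figure D2:**
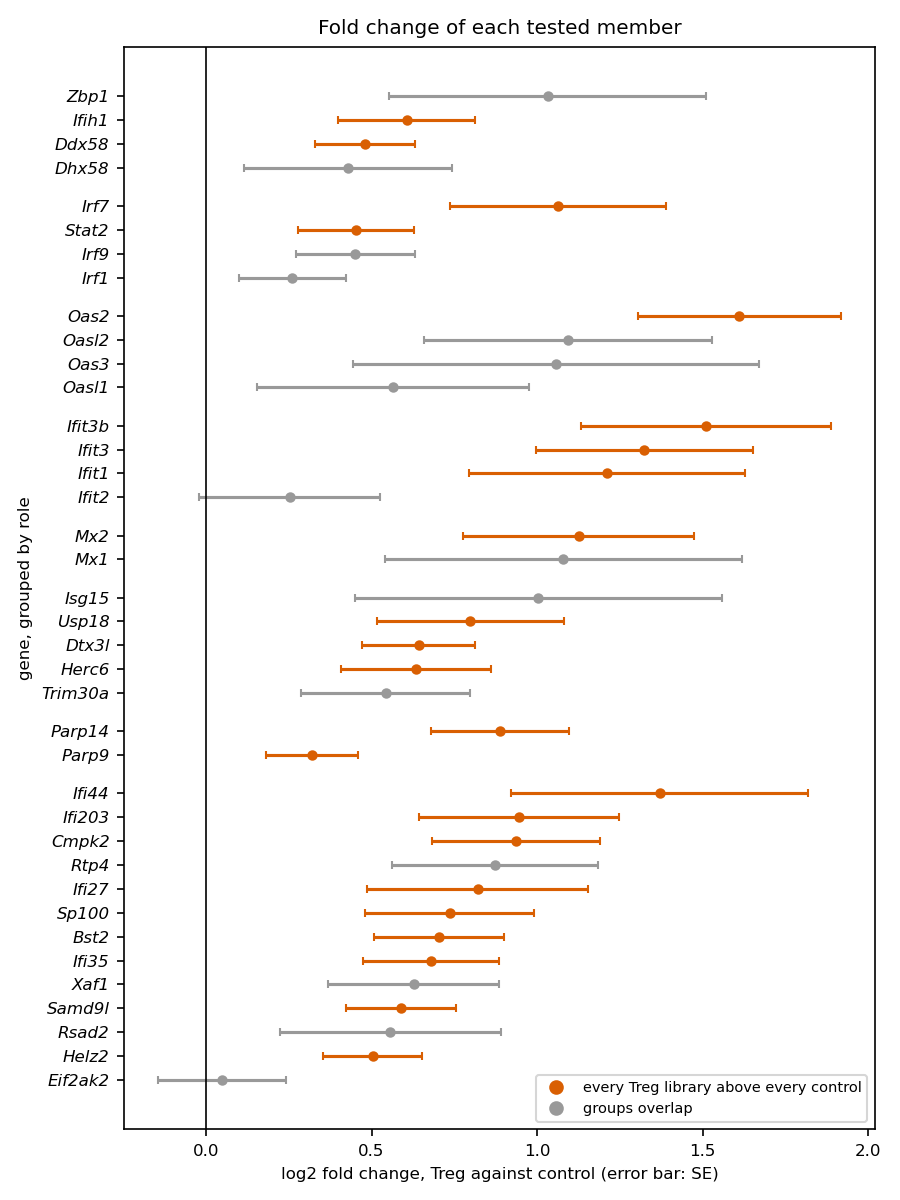
Log2 fold change of the 38 tested genes, Treg against control, with its standard error, grouped by role; orange points are genes in which every Treg library lay above every control. All 38 points are above 0, from Eif2ak2 at 0.05 to Oas2 at 1.61.

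The oligoadenylate synthetases, which make the second messenger that activates RNase L, held the gene with the smallest p. Oas2 (chromosome 5, 120730333 to 120749853) stood at 5.30, 3.67 and 2.42 CPM in the control libraries and at 11.6, 9.09 and 14.1 CPM in the Treg libraries. The lowest Treg value lay well above the highest control value. Its log2 fold change was 1.61 ± 0.31 (SE) with edgeR's adjusted p = 0.117. DESeq2 gave an adjusted p of 0.000194, edgeR gave 0.044 without control replicate 3, where the fold change was 1.37, and over all alternatives the adjusted p ran from 0.000194 to 0.53. Without control replicate 3, Oas2 was the 1 gene of the set to pass edgeR's test, where 0.674% of all genes were called higher. The related genes Oasl2, Oas3 and Oasl1 had log2 fold changes of 1.09, 1.06 and 0.56, and in each the groups overlapped. Oas3 had 3 counts in control replicate 3 and 16 to 47 in the other libraries; its log2 fold change was 0.58 without that library and ran from 0.23 to 1.72 over all alternatives. Oas1a had 0 counts in all 6 libraries, which allows at most 0.0942 to 0.108 CPM (3 counts per library, counting error only). Of the 101-base words in its transcripts, 40.6% also occur in Oas1g, which was listed at 0 as well.

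Of the IFIT proteins, IFIT1 binds viral RNA that lacks the host cap structure. In 3 of the 4 IFIT genes here every Treg library lay above every control (13.7% of all genes). Ifit3 (chromosome 19, 34583531 to 34588731) stood at 3.61, 2.52 and 1.78 CPM in control and at 7.42, 4.44 and 7.95 in Treg. Ifit3b, next to it, stood at 2.60, 1.82 and 1.04 CPM in control and at 6.63, 3.50 and 5.43 in Treg. In both the groups did not overlap and Treg replicate 2 was the lowest Treg library. The log2 fold changes were 1.32 ± 0.33 and 1.51 ± 0.38, with edgeR's adjusted p of 0.171 and 0.173. Since 31.3% of the 101-base words of Ifit3 also occur in Ifit3b, how reads were divided between them is uncertain. Counted together they had a log2 fold change of 1.40 (edgeR adjusted p = 0.164).

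Ifit1, of the same cluster, stood at 3.05, 2.15 and 1.55 CPM in control and at 4.12, 3.17 and 8.32 in Treg (1.21 ± 0.42, edgeR adjusted p = 0.251). Its highest value, in Treg replicate 3, was far above the other Treg libraries, and Treg replicate 2 was only just above control replicate 1. Ifit2 overlapped between the groups. It stood at 19.1, 16.3 and 11.1 CPM in control and at 20.5, 12.6 and 22.2 in Treg, so that Treg replicate 2 lay below 2 of the controls. Its log2 fold change was 0.25 ± 0.27, and −0.11 with control replicate 3 and Treg replicate 3 both left out. Ifit2 also had the highest level per length of the family, 3.94 RPKM in control against 1.51 for Ifit3.

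**Figure D3:**
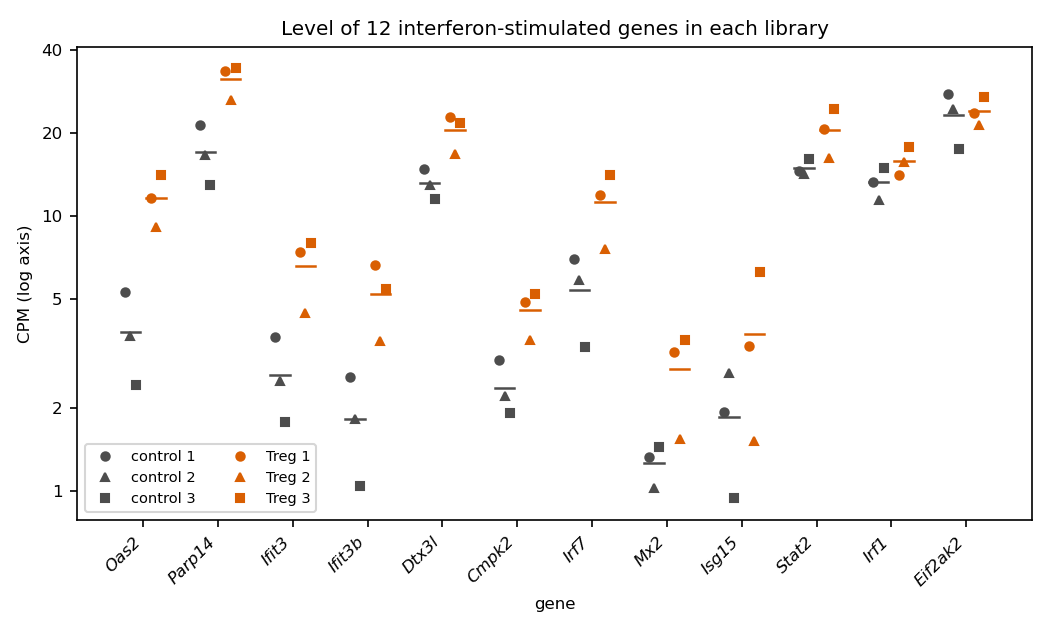
CPM of 12 genes in each of the 6 libraries on a log axis, with a symbol for each replicate and a line at the group mean; grey is control and orange is Treg. Oas2, Ifit3 and Parp14 separate the groups, while Isg15, Irf1 and Eif2ak2 overlap.

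Mx proteins are dynamin-like GTPases that trap viral nucleocapsids. Mx2, which GENCODE M21 lists as a polymorphic pseudogene, so that a working protein cannot be assumed in these mice, stood at 1.33, 1.03 and 1.45 CPM in control and at 3.20, 1.55 and 3.55 in Treg, with a fitted log2 difference of 1.12 ± 0.35 (edgeR adjusted p = 0.223). Mx1 stood at 1.30, 0.83 and 0.44 CPM in control and at 1.75, 0.79 and 2.86 in Treg. Its log2 fold change of 1.08 ± 0.54 came from Treg replicates 1 and 3, and Treg replicate 2 lay below 2 of the controls.

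Of the 5 genes of the ISG15 system and of ubiquitin ligases, 3 had every Treg library above every control (13.7% of all genes). Isg15 (chromosome 4, 156199424 to 156200818), which encodes a ubiquitin-like modifier, stood at 1.93, 2.68 and 0.94 CPM in control and at 3.36, 1.51 and 6.25 in Treg. Treg replicate 2 lay below 2 controls, and the fold change rested largely on Treg replicate 3. It was 1.00 ± 0.55 with all libraries (edgeR adjusted p = 0.397) and 0.40 without that library. Usp18, the protease that removes ISG15 and dampens receptor signalling, stood at 2.35, 1.65 and 2.02 CPM in control and at 3.33, 2.52 and 4.62 in Treg, so that the groups did not overlap (0.80 ± 0.28). Herc6, the ligase that attaches ISG15 in mice, had 0.63, with 10.3% of its words shared with an overlapping transcript, Gm45193. Trim30a, a ubiquitin ligase gene of the TRIM family, had 0.54 ± 0.26 with overlapping groups.

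Dtx3l and Parp9 are partner proteins that modify histones and damaged DNA, and their genes lie head to head on chromosome 16 with overlapping exons. Dtx3l (35926511 to 35939151) stood at 14.8, 12.97 and 11.6 CPM in control and at 22.8, 16.8 and 21.8 in Treg, which gave a log2 difference of 0.64 ± 0.17 (edgeR adjusted p = 0.188). Parp9 (35938470 to 35972605) stood at 17.8, 19.5 and 16.6 CPM in control and at 24.3, 19.8 and 23.1 in Treg. Its groups did not overlap, by a narrow margin, and its log2 fold change was 0.32 ± 0.14. The 2 genes share 5.14% and 5.53% of their words.

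Parp14, an ADP-ribosyltransferase close by on the same chromosome, stood at 21.5, 16.6 and 12.99 CPM in control and at 33.7, 26.4 and 34.4 in Treg. Every Treg library was above every control by several CPM. The log2 fold change was 0.89 ± 0.21, with edgeR's adjusted p = 0.159 and DESeq2's 0.0121 (0.0121 to 0.593 over all alternatives).

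Of the 4 transcription factor genes, Irf7 and Stat2 had every Treg library above every control (13.7% of all genes). Irf7, which amplifies interferon production, stood at 6.95, 5.82 and 3.33 CPM in control and at 11.9, 7.61 and 14.1 in Treg, with a log2 fold change of 1.06 ± 0.33 (edgeR adjusted p = 0.219). The partners Stat2 and Irf9 had 0.45 ± 0.18 each. Stat2 stood at 14.6, 14.2 and 16.1 CPM in control and at 20.7, 16.2 and 24.6 in Treg, where Treg replicate 2 was only just above control replicate 3. Irf9 stood at 14.5, 11.3 and 10.9 CPM in control and at 17.6, 14.0 and 18.6 in Treg, and Treg replicate 2 lay below control replicate 1. Irf1, which interferon gamma also induces, stood at 13.3, 11.5 and 15.0 CPM in control and at 14.1, 15.7 and 17.8 in Treg, with overlapping groups and 0.26 ± 0.16. Irf7 and Irf9 share annotated exon bases with Phrf1 and Rnf31, and how the counting treated strand is not known here.

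Among the sensors of RNA and DNA, Ddx58, which encodes RIG-I, stood at 14.8, 12.97 and 13.5 CPM in control and at 19.5, 16.3 and 21.8 in Treg (0.48 ± 0.15). Ifih1, which encodes MDA5, stood at 7.09, 5.82 and 4.71 CPM in control and at 9.33, 7.50 and 9.99 in Treg (0.61 ± 0.21). In both the groups did not overlap, and edgeR's adjusted p was 0.229 and 0.248. Zbp1, a sensor of Z-form nucleic acid, and Dhx58, which regulates the other sensors, had 1.03 and 0.43 with overlapping groups.

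Of the 13 other effectors, 9 had every Treg library above every control (13.7% of all genes). Cmpk2, a mitochondrial nucleotide kinase, stood at 2.98, 2.22 and 1.92 CPM in control and at 4.88, 3.53 and 5.21 in Treg (0.94 ± 0.25, edgeR adjusted p = 0.194). Its neighbour on chromosome 12, Rsad2, which encodes the antiviral enzyme viperin, overlapped between the groups (0.56 ± 0.33). Bst2 stood at 5.93, 6.62 and 5.96 CPM in control and at 9.27, 8.29 and 12.6 in Treg (0.70 ± 0.20). Samd9l, a translational repressor, stood at 14.0, 12.97 and 10.7 CPM in control and at 19.0, 16.3 and 21.4 in Treg (0.59 ± 0.17). Helz2, a nuclear receptor coactivator, stood at 31.4, 24.5 and 34.0 CPM in control and at 44.2, 39.1 and 44.1 in Treg (0.50 ± 0.15). Ifi35 stood at 8.21, 6.55 and 5.12 CPM in control and at 10.7, 9.56 and 11.6 in Treg (0.68 ± 0.21).

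The remaining effectors with groups apart were Ifi44, Ifi203, Ifi27 and Sp100, at 1.37, 0.95, 0.82 and 0.74. Rtp4 and Xaf1 overlapped, at 0.87 and 0.63. Eif2ak2, which encodes the RNA-activated kinase PKR, was the gene closest to no difference. It stood at 27.8, 24.5 and 17.5 CPM in control and at 23.6, 21.5 and 27.0 in Treg, with the highest value in a control. Its log2 fold change was 0.05 ± 0.19 (edgeR adjusted p = 0.916) and −0.12 without control replicate 3, although its promoter window holds the double GAAA pattern. Over the set, the 13 tested genes with a match had a median log2 fold change of 0.70 and the 15 with a window and no match had 0.63.

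The libraries differed within each group, and in a similar order from gene to gene. Relative to the 6-library mean of log2(CPM + 0.1), the median of the set was −0.11, −0.34 and −0.58 in control replicates 1, 2 and 3, and 0.37, 0.01 and 0.60 in Treg replicates 1, 2 and 3. The pooled SD of these library medians within groups was 0.268. Treg replicate 2 was the lowest Treg library in 35 of the 38 genes, against 37.8% of all genes. Treg replicates 1 and 3 both lay above every control in 34 of the 38, against 17.8% of all genes, and Treg replicate 2 did so in 24, against 27.1%. Without Treg replicate 2 the groups did not overlap in 35 genes in place of 23, and the share over all genes, with fewer libraries to separate, was 17.3% in place of 13.7%. Treg replicate 3 was the highest library in 29 of the 38 genes, against 10.7% of all genes. Control replicate 3 was the lowest in 26, against 31.9% of all genes, and it was the highest library in 33.3% of all genes.

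**Figure D4:**
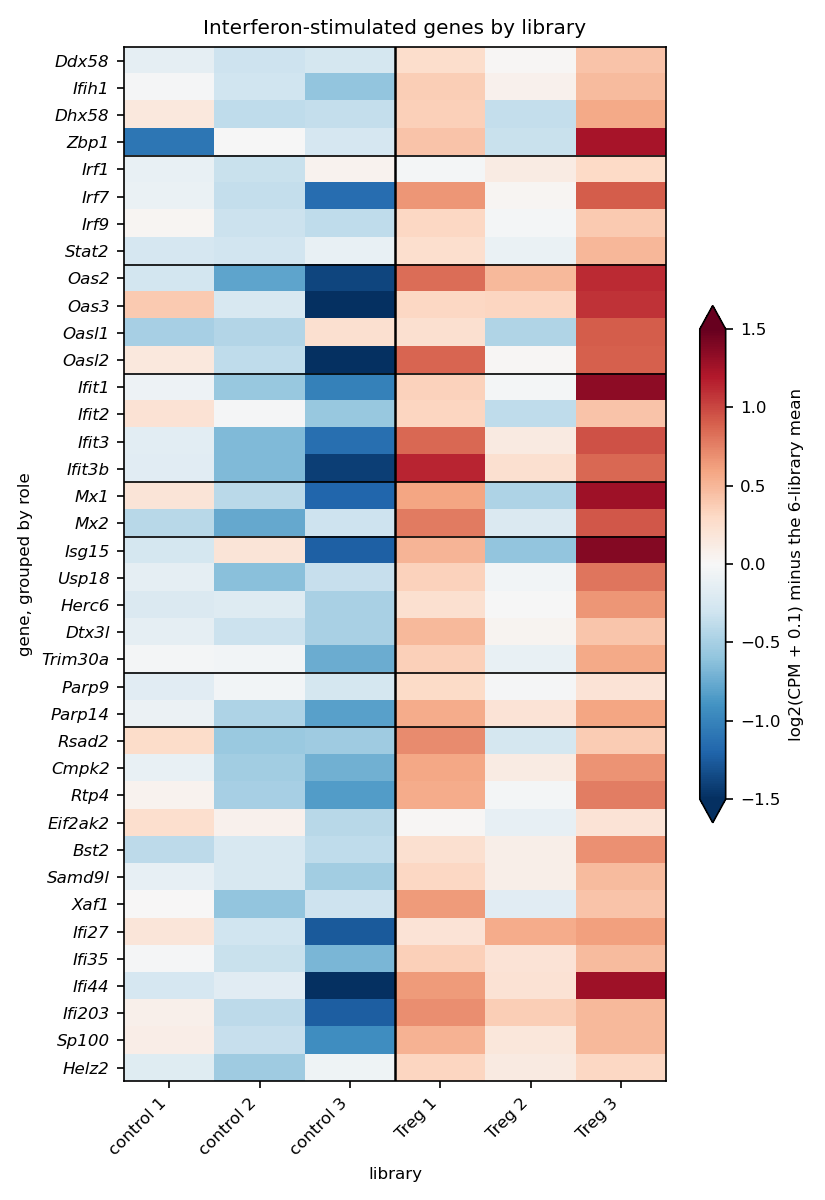
Log2(CPM + 0.1) of the 38 tested genes in each library, minus the mean over the 6 libraries, with genes grouped by role (horizontal lines) and the groups divided by the vertical line. Treg replicates 1 and 3 are mostly red, Treg replicate 2 is pale, and control replicate 3 is mostly blue.

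Library totals were close, between 28937253 and 29979080 counts. Control replicate 3 stood apart over the whole transcriptome, with correlations of log2 CPM of 0.936 to 0.957 to the other libraries, where the rest ranged from 0.967 to 0.991. Treg replicate 3 held the atrial light chain Myl7 at 1202 counts, against 1 to 6 elsewhere. Cardiomyocyte markers were abundant in all libraries (Myh6 at 12480 to 24090 CPM). With control replicate 3 and Treg replicate 3 both left out, the median of the set was 0.45, and 36 of 38 genes were still above 0.

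Markers of immune and blood cells were read beside these values. Of the 5 NK cell markers none was at 0 in all libraries, but none exceeded 11 counts. Their summed level was 0.0337 to 0.364 CPM in control and 0.692, 0.397 and 1.04 CPM in Treg replicates 1, 2 and 3, the same order as the set within the Treg group. The 6 macrophage markers summed to 176 to 290 CPM in control and to 245, 204 and 271 CPM in Treg, so that the groups overlapped while the order within Treg was again the same. That order was not particular to them: the sums of fibroblast, monocyte, T cell and atrial cardiomyocyte markers had it too. It is an order of sums, and single markers departed from it, among them Gzma, Fcgr1, Pdgfra, Ly6c2, Cd3e and Myl7. Plasmacytoid dendritic cells, a main source of type I interferon, had Siglech at 2 to 12 counts and Ly6d at 0 to 2 counts. That list's sum, 525 to 555 CPM in control and 641 to 844 CPM in Treg, was almost wholly Cox6a2, which muscle also expresses. The 6 markers of conventional dendritic cells summed to 15.4 to 22.9 CPM in control and 22.6 to 26.0 in Treg. Most of this sum was Zbtb46, at 12.2 to 19.1 CPM. The 5 tested had log2 fold changes from 0.32 (Zbtb46) to 2.69 (Cd209a, 0 to 39 counts). In Cd209a and Flt3 (2.14, 1 to 31 counts) every Treg library lay above every control (13.7% of all genes). The 5 regulatory T cell markers summed to 4.44 to 8.42 CPM in control and 9.23 to 9.33 in Treg. Foxp3 was at 42 to 56 counts in every library. Ikzf2 was the largest part of this sum except in control replicate 3, where it had 37 counts against 100 to 153 elsewhere. Its log2 fold change was 0.62, and 0.27 without that library. Il2ra had 1.69 at 3 to 17 counts in control and 23 to 38 in Treg. In both every Treg library lay above every control (13.7% of all genes). Foxp3 and Tnfrsf18 had 0.04 and 0.25 with overlapping groups. Ctla4 had 1 to 8 counts and was not tested. Some other lists stood out in control replicate 3. The 5 monocyte markers summed to 115, 205 and 327 CPM in control and to 111, 95.7 and 143 CPM in Treg. Most of this sum was Vcan, at 94.5, 172.9 and 256.2 CPM in control and 81.0, 72.6 and 113.5 in Treg. Chil3 had 1236 counts in control replicate 3 and 4 to 184 elsewhere. The markers did not share a direction: Ccr2 and Plac8 had log2 fold changes of 0.53 and 0.12, and Ly6c2 and Vcan −0.20 and −0.97. The T cell gene Cd3e stood at 2.88, 1.19 and 15.7 CPM in control and at 0.396, 0.577 and 0.471 CPM in Treg, below every control (log2 fold change −3.77 ± 0.96, edgeR adjusted p = 0.177, DESeq2 adjusted p = 0.000176, 0.000176 to 0.605 over all alternatives). Without control replicate 3 its log2 fold change was −2.07. Of the 7 T cell markers 2 were tested. The other, Cd4, had a log2 fold change of 1.17 at 4 to 27 counts. Those not tested had at most 13 counts in a library. In control replicate 3, where Cd3e had 465 counts, Cd3d had 3, Cd3g, Trac and Cd8b1 had 0 and Cd8a had 1. Over the 7, the median of log2(CPM + 0.1) minus the 6-library mean was −0.011, −0.211 and −0.636 in control replicates 1 to 3. In Treg replicates 1 to 3 it was 0.298, 0.00294 and 0.474. Neutrophil markers summed to 36.8 CPM in control replicate 3 and 6.81 to 18.4 CPM elsewhere, and erythroid markers to 292 CPM there and 1070 to 2850 CPM elsewhere. The part of these cells in the result was not tested.

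The interferons themselves were barely seen. Of 21 ligand genes, 16, including Ifnb1, had 0 counts in all 6 libraries, and none reached the filter for testing. Ifng had at most 1 count in a library. The highest was Ifnz, a type I interferon of mice, at 2 to 6 counts. A count of 0 allows up to 0.0942 to 0.108 CPM, by counting error only. How reads shared by several genes were counted is not known here, and shared sequence was not examined for the ligands.

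The 2 receptor genes of type I interferon overlapped between the groups. Ifnar1 stood at 32.7, 33.7 and 34.1 CPM in control and at 36.6, 29.8 and 35.0 in Treg (log2 fold change 0.01 ± 0.12). Ifnar2 stood at 18.8, 20.8 and 22.8 CPM in control and at 22.1, 19.2 and 21.1 in Treg (−0.000835 ± 0.13). Other receptor genes lie in the same cluster on chromosome 16. Il10rb, the chain shared by the receptors of IL-10 and interferon lambda (91406164 to 91425834), stood at 50.4, 44.7 and 31.3 CPM in control and at 69.4, 81.2 and 62.9 in Treg. Its log2 fold change was 0.76 ± 0.20 with edgeR's adjusted p = 0.183, and DESeq2 gave 0.0344 (0.0344 to 0.593 over all alternatives). Ifngr2, of the interferon gamma receptor (91547072 to 91565623), stood at 80.6, 92.2 and 46.9 CPM in control and at 124, 116 and 121 in Treg (0.72 ± 0.24, edgeR adjusted p = 0.238). In both the groups did not overlap, and Treg replicate 2 was the highest library for Il10rb. Ifnlr1 overlapped (−0.27).

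Downstream of the receptors, the kinase genes Jak1 and Tyk2 had 0.14 and 0.36, and Stat3, which IL-6 type cytokines activate, had −0.29. Of the other interferon regulatory factors Irf2 and Irf3 had 0.37 and 0.32. In Jak1, Tyk2, Irf2 and Irf3 every Treg library lay above every control (13.7% of all genes), and in Stat3 the groups overlapped. Irf3 encodes a factor that the RNA and DNA sensors activate through adaptors and kinases.

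Of the 15 sensing adaptors and kinases 0 passed, with a median of 0.03. Tlr9, a receptor for DNA in endosomes, Cgas, the cytosolic DNA sensor, and Riok3 had 1.22, 0.58 and −0.66. Every Treg library lay above every control in Tlr9 and below in Riok3 (13.7% and 11.7% of all genes), and Cgas overlapped. Of the 11 negative regulators 0 passed, with a median of 0.10. The phosphatase gene Ptpn2, whose product acts on JAK1, stood at 13.9, 16.4 and 18.9 CPM in control and at 10.95, 12.6 and 11.5 in Treg, lower in every Treg library (−0.49 ± 0.16, edgeR adjusted p = 0.233). Irf2bp2 and Samhd1, a nucleotide hydrolase, had 0.48 and 0.35, with every Treg library above every control in both (13.7% of all genes). Socs1, the inhibitor that type I and type II interferons induce, was at 0.53 to 0.91 CPM in all libraries (−0.15). Socs3, a feedback inhibitor of IL-6 signalling, had −1.35 and −0.48 without control replicate 3, where it stood at 36.8 CPM against 7.90 and 13.2 in the other controls.

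Other interferon-stimulated genes, 63 listed and 57 tested, had a median log2 fold change of 0.37, with 42 above 0 and 15 below. By edgeR 0 passed, 15 were higher and 1 lower at an unadjusted p under 0.05 (8.23% and 8.31% of all genes). In 15 of the 57 every Treg library lay above every control and in 1 below (13.7% and 11.7% of all genes). Parp10 stood at 9.79, 8.37 and 7.88 CPM in control and at 15.6, 13.2 and 16.0 in Treg (0.78 ± 0.16, edgeR adjusted p = 0.132, DESeq2 adjusted p = 0.00326, 0.00326 to 0.57 over all alternatives). Mndal, a DNA-binding p200 protein, stood at 16.95, 12.8 and 7.04 CPM in control and at 31.6, 26.5 and 27.7 in Treg (1.22 ± 0.29, edgeR adjusted p = 0.165). It shares exons with Ifi203 on the same strand, so reads of the pair could be split. Epsti1 had 1.23 at 0.30 to 1.12 CPM. DESeq2 called 3 of the 100 pathway genes tested outside the set, Il10rb, Mndal and Parp10, all higher, where 1.85% of all genes were called higher, so this share was near the background.

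**Figure D5:**
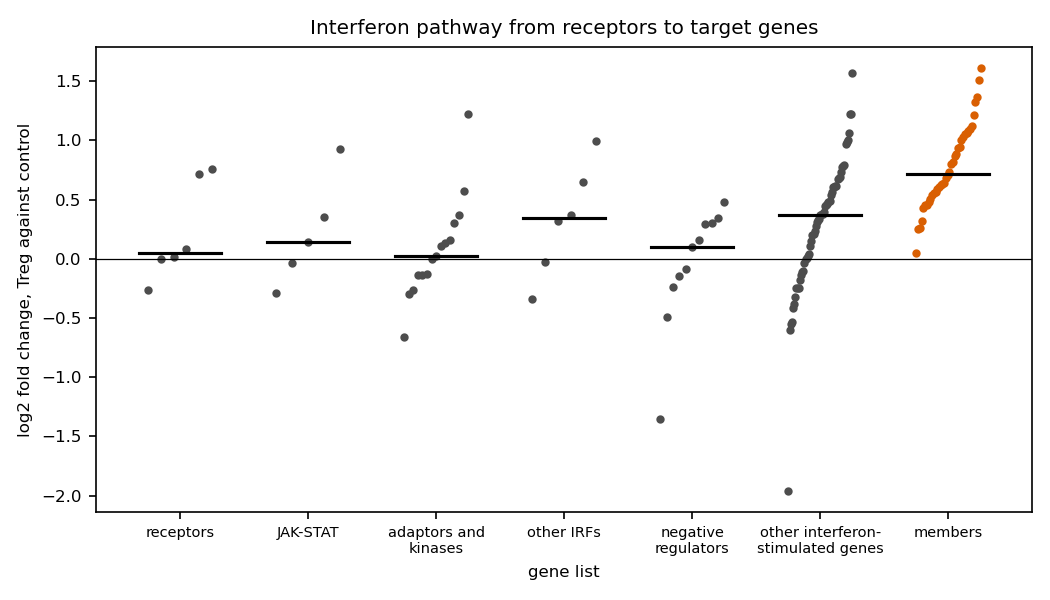
Log2 fold change (Treg against control) of each tested gene in 6 lists of interferon pathway genes and in the set itself (orange), with a line at each list's median. The receptor, adaptor and negative regulator lists are centred near 0, and the JAK-STAT list at 0.14. Other interferon regulatory factors are centred at 0.34, other interferon-stimulated genes at 0.37, and the set at 0.72.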

How the data were processed

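RNA was extracted from frozen left ventricle and sequenced as stranded mRNA libraries with paired 101 bp reads, per the labels' protocols. The submitters' processing notes name featureCounts 2.0.6, HISAT2 2.1.0, Cuffdiff 2.2.1, Trimmomatic 0.39 and GRCm38, without roles, and counting options are unknown here. The authors deposited estimated counts per Ensembl gene, of which 46.5% to 50.0% of values above 0 in a library are fractional. A further 6 columns match no sample listed here and were not used. Counts were rounded, and symbols and coordinates taken from GENCODE M21 (GRCm38; 47224 of 47729 IDs named). The listed Mb21d1 was matched as Cgas. The members and lists were chosen with earlier results of these data known, so no set was tested and no p was adjusted over a list.

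The groups were compared with edgeR 4.0.16 (filterByExpr, TMM, robust quasi-likelihood F test, two-sided, Benjamini-Hochberg over 17365 genes). The test had been planned for raw counts. Standard errors were derived from the fold change and its F statistic. The fit was tested on simulated data, where it recovered 42 of 100 genes changed by a log2 of 1. It recovered 80 of 100 changed by a log2 of 2, with 8 false calls. Alternatives were DESeq2 1.42.0, limma-voom (3.58.1), RLE scaling, other filters, mitochondrial genes removed, copies summed, a replicate block and libraries left out. Genes of the set given by library were the 12 with the smallest p, 12 fixed by name and the 4 with the lowest fold change. For the pathway lists the rule named the 3 of each list with the smallest p and 10 fixed by name. Some of these pathway genes are given by fold change without the value of each library. Shared words are 101-base stretches of GENCODE M21 transcripts found in another gene on either strand. Promoters are from RefSeq (GRCm38.p6). Some genes that this rule names are not reported here.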

Additional observations from a re-analysis of the deposited data

How the results depend on the processing

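Over the whole table edgeR called 0 genes (2873 at an unadjusted p under 0.05), DESeq2 called 650, edgeR without a filter 38, and with control replicate 3 and Treg replicate 3 both left out 119, an omission chosen after seeing the data. With single libraries left out the count ran from 0 to 230, the highest without control replicate 3. Of the interferon-stimulated set DESeq2 called 6, and single omissions gave 0 to 1. The set's median log2 fold change lay between 0.56 and 0.89 over single omissions and was 0.45 with both libraries out. The number of its genes with every Treg library above every control ran from 23 to 35 over single omissions and was 22 with near-identical copies summed, while the share of all genes ran from 10.5% to 24.2% over all settings. Of the other pathway genes DESeq2 called 3, single omissions gave 0 to 6 (the 6, without control replicate 3, were Trim25, Ifi205, Ifi207, Ifi211, Mndal and Ifitm1), and leaving both out gave 1, Ifi207. Limma-voom, RLE scaling, the 1 CPM filter, removal of mitochondrial genes and summed copies called 0 of the set.

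Fold changes of 5 genes chosen by the naming rule changed sign, as did that of Ifi207, from −0.31 to 0.96 over all alternatives. Eif2ak2 ran from −0.12 to 0.20 over single omissions and was −0.22 with both libraries out, where Ifit2 was −0.11. Eif2ak2 was −0.04 without Treg replicate 3. Ifnar1 ran from −0.046 to 0.097, and was −0.0101 with both out. Ifnar2 ran from −0.0573 to 0.0692, and was 0.0015 with limma-voom, 0.0257 without a filter, 0.004 with the 1 CPM filter, 0.0007 with the replicate block and 0.0484 with both out. Socs1 ran from −0.34 to 0.0397.

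Same-numbered libraries did not deviate together (correlations −0.142, −0.236 and 0.0424). With 3 libraries per group these correlations cannot decide whether the numbers pair them. With the replicate number as a block 0 genes and 0 of the set passed, 2472 genes had an unadjusted p under 0.05, and the set's median was 0.73. Genes under 1 CPM rest on few counts.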

Other observations

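The p200 genes, which encode DNA-binding interferon-inducible proteins and lie side by side on chromosome 1, did not behave alike in control replicate 3; these genes were singled out after their values were seen. Ifi203 (173920407 to 173942672) and Mndal (173849126 to 173942491) had their lowest level there, at 15.1 CPM against 27.0 and 37.7 in the other controls for Ifi203, and at 7.04 against 12.8 and 16.95 for Mndal. Ifi207 (173723427 to 173741747) had its highest level there, at 43.7 CPM against 12.3 and 11.1 in the other controls and 21.4 to 23.3 in Treg. Ifi211, in the same stretch, stood at 10.5 CPM there against 4.32 and 4.30 in the other controls, and Ifi205 at 14.4 against 2.14 and 3.67. Without control replicate 3 the log2 fold changes of Ifi205, Ifi211 and Ifi207 were 2.18, 1.13 and 0.93, with edgeR's adjusted p of 0.0333, 0.0348 and 0.0219. With all libraries they were 0.97, 0.57 and 0.00.

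Beyond the listed set, 424 tested genes had a match to the double GAAA pattern in a promoter window. Their median log2 fold change was 0.01, and 16.3% of them had every Treg library above every control, beside 14.2% of the 11071 other genes with a window and no match. Of the 28 with 2 or more matches, 18 were above 0, with a median of 0.05.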
